A study of Homo sapiens with 4 samples.

Results

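The response of T24 cells to OICR-9429 was described across all genes from 2 of the 4 RNA-seq libraries of the series, the T24 library treated with OICR-9429 and the T24 library given DMSO. T24 is an established human bladder cancer line of urothelial origin that carries an activated HRAS. OICR-9429 occupies the pocket of WDR5 that MLL binds, and DMSO was the solvent control. The labels give 140 µM and 48 h for the treated cells and DMSO over the same 48 h for the control cells, while the headings of the treated columns carry the number 125, whose meaning was not given in the sources used here. The other 2 libraries are the same pair in UM-UC-3, a second bladder cancer line, and they are used here only beside the T24 values. Each condition has 1 library per line, and nothing in the labels ties the 2 T24 libraries to separate cultures. A difference between them therefore has no replicate check, and no p-value is given anywhere. Values are FPKM, counted fragments scaled to exon length and to library depth. A gene was assessed when it reached an FPKM of 1 in at least 1 of the 2 T24 libraries, which left 12638 of the 31319 genes. It was called higher or lower when FPKM + 0.5 differed at least 2-fold, and "rose" and "fell" below are kept for genes called in this way. Log2 differences are on the log2(FPKM + 0.5) scale, which understates the change of low genes.

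WDR5 is a scaffold subunit of the MLL/SET1 complexes, which place methyl groups on lysine 4 of histone H3 at promoters. It is also a docking surface for other chromatin proteins, MYC among them, and ribosomal protein genes are known WDR5-bound targets in several human cancer lines. In bladder cancer the luminal and basal cell states, growth factor signalling through RAS, and the cell cycle are the programmes most often followed at the RNA level.

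The T24 libraries held 28863243 counted fragments (DMSO) and 29335051 (OICR-9429), as worked back from the deposited values. At this depth counting error is small for most genes named here, and the 95% exact Poisson intervals given below cover counting error only. The T24 label was checked against marker genes. Of the luminal urothelial markers 2 of 8 reached an FPKM of 1 and their summed FPKM was 6.92 in DMSO and 9.56 in OICR-9429. Of the basal markers 2 of 6 did, CD44 and EGFR, with sums of 127 and 198, while the defining basal keratins KRT5 and KRT14 were listed at 0 in both libraries. Of the epithelial markers KRT18 and KRT8 reached an FPKM of 1 and CDH1 did not. Their sum was 163 in DMSO and 97.4 in OICR-9429. The mesenchymal markers VIM, CDH2 and ZEB1 all reached it, with sums of 58.4 and 94.3. No immune, endothelial or fibroblast marker did, and the largest of these sums was 0.655 (immune, OICR-9429). UPK3A, KRT6A, EPCAM, CD3E and MS4A1 had no entry in the deposited values, so the immune markers were 2 genes. Few urothelial differentiation markers were thus measured in T24, in either library.

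Most genes moved little and the larger changes were mostly falls. Of the assessed genes, 1709 fell (13.5%) and 876 rose (6.93%), and these 2 shares are the background against which the gene lists below are read. The median log2 difference of all assessed genes was -0.15, and 58.5% of them lay within 1.5-fold of it. The asymmetry grew with size. Changes of at least 4-fold numbered 415 falls and 131 rises, changes of at least 8-fold 145 and 22, and changes of at least 16-fold 32 and 2. Genes that fell supplied 13.7% of all FPKM in DMSO and 3.99% in OICR-9429, and genes that rose supplied 5.02% and 14.6%. The split of the calls depends on scaling. With trimmed-mean (TMM) scaling 1393 genes were lower and 1203 higher, so the share of falls among calls went from 66.1% to 53.7%, and lists with a median near -0.15 can change direction with scaling. Genes named outside the rule given with the methods were chosen after their values were seen.

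**Figure D1:**
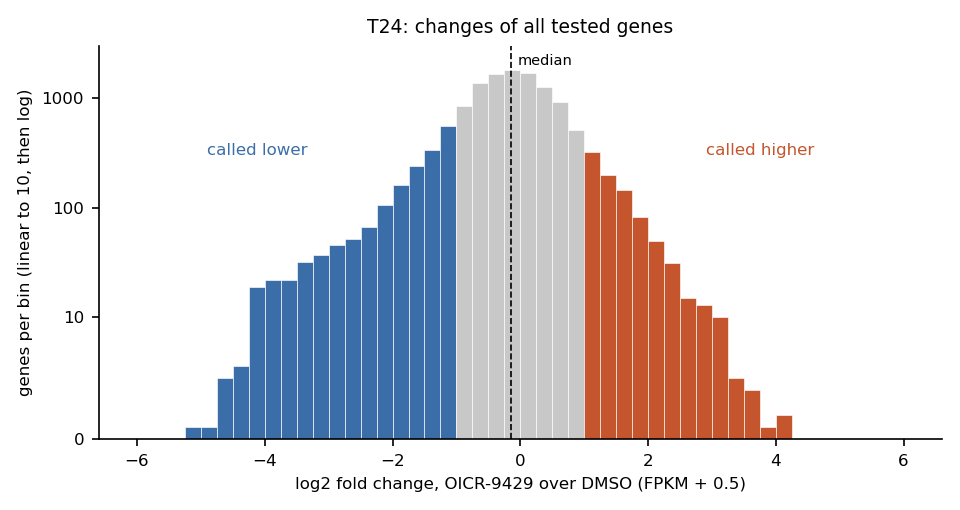
Number of assessed T24 genes (y axis) by their log2 difference in FPKM + 0.5, OICR-9429 over DMSO (x axis), with 1 library per condition. The left tail is longer and heavier than the right one, with 145 falls and 22 rises of at least 8-fold.

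Nearly all genes of mitosis and DNA replication fell, while those of the earlier cycle and of nucleotide supply fell in part. In bulk libraries, fewer dividing cells and less of each RNA per cell cannot be told apart. Of 48 G2/M and mitosis genes 46 fell (median log2 difference -3.57), as did all 13 mitotic kinesins (median -3.55), 34 of 37 kinetochore and centromere genes (median -2.95) and 49 of 53 DNA replication genes (median -2.32). Of 23 assessed G1 cyclins, CDKs and E2F genes 10 fell (median -0.80), of 12 deoxynucleotide and pyrimidine synthesis genes 7, of 12 purine synthesis genes 4 and of 6 CDK inhibitors 1. None of these rose. SPC25, a subunit of the NDC80 kinetochore complex, had the largest fall of the named genes, from 32.1 FPKM in DMSO to 0.463 in OICR-9429 (log2 difference -5.08). ZWINT, a kinetochore adaptor, went from 87.9 to 2.37 (-4.95), and ASF1B, a histone chaperone used behind the replication fork, from 31.8 to 0.917 (-4.51). CDK1, the kinase that drives entry into mitosis, went from 57.9 to 2.72 (-4.18). The licensing helicase subunits fell less. MCM3 went from 89.9 to 17.6 (-2.32) and MCM6 from 53.3 to 9.35 (-2.45). APOBEC3B, a cytidine deaminase of single-stranded DNA, belonged to none of the lists and fell from 17.8 to 0.414 (-4.32), but 23.3% of its exon bases also lie in other genes. In UM-UC-3 the same mitotic genes had a median of -3.69 with 46 of 48 lower.

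The CHR element (TTTGAA), the CCAAT box (CCAAT) and 2 forms of the E2F site (TTTGGCGC and TTTCCCGC) are the known promoter elements of mitotic and replication genes. They were searched on both strands in RefSeq windows from 250 bases before to 50 bases after each gene's start (build GRCh38.p14). The 6 windows printed first are from mitotic genes that fell and the next 3 from replication genes that fell. Each is 60 bases, 5' to 3' on the gene's strand, and they are shown to place the letters counted below. Capitals mark TTTGAA in the mitotic windows and an E2F form in the replication windows. Matches to the CCAAT box, on either strand, are left in lower case.
CDK1 (chr10:60778143-60778202, plus strand): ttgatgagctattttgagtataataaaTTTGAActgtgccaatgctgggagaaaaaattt
CDC20 (chr1:43358889-43358948, plus strand): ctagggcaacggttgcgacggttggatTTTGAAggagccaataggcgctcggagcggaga
PLK1 (chr16:23678829-23678888, plus strand): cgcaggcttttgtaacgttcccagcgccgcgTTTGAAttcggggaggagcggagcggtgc
KIF23 (chr15:69414267-69414326, plus strand): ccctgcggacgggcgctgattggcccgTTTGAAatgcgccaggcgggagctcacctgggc
MKI67 (chr10:128126424-128126483, minus strand): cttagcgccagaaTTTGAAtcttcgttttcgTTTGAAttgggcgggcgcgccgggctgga
CCNB2 (chr15:59105086-59105145, plus strand): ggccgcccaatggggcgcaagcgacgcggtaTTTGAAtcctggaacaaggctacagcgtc
MCM6 (chr2:135876500-135876559, minus strand): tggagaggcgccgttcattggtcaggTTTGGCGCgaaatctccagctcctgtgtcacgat
MCM3 (chr6:52284883-52284942, minus strand): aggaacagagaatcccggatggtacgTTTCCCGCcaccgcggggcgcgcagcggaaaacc
PCNA (chr20:5126648-5126707, minus strand): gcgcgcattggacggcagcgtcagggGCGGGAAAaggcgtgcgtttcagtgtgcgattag

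MKI67 holds the CHR letters at both of the places shown, and PCNA, the sliding clamp of DNA polymerase, holds the second E2F form on the opposite strand. The letters TTTGAA stood in 57.1% of the 49 G2/M promoter windows and in 3.33% of the 60 DNA replication windows, against 15.2% of all 35116 windows. The second E2F form had the reverse pattern, in 18.3% of replication windows and in none of the G2/M windows, against 1.63% of all. Across all calls, TTTGAA was in 26.8% of windows of genes lower at least 4-fold, in 15.7% of those called lower, in 11.2% of those called higher and in 9.28% of those assessed and not called. In genes higher at least 4-fold, a smaller group of 82 windows, it was in 15.9%. The CCAAT box was in 55.9% of windows of genes lower at least 4-fold, in 43.9% of those higher at least 4-fold and in 34.6% of all windows. These shares are descriptions, and a gene with several starts counts once per start. The median GC of the windows was 62.7% for genes lower at least 4-fold and 65% for all assessed genes.

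**Figure D2:**
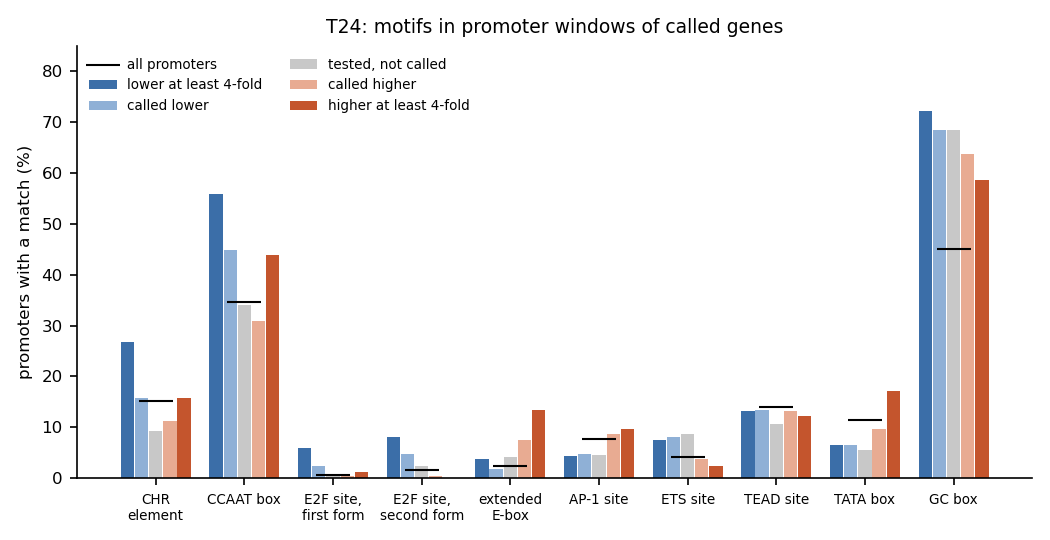
Percent of promoter windows with a match (y axis) for each motif (x axis), as bars by how the gene was called in T24, with a black dash for all promoters. The CHR, CCAAT and E2F bars of the genes that fell at least 4-fold are taller than those of the genes not called. The extended E-box bars of the genes that rose are taller than those of the genes that fell.

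Of the 67 gene lists, the lysosomal one had the most members that rose, by number. By share, the replication-dependent histone (63.2%), osmotic stress (42.9%) and NRF2 (41.9%) lists described below stood higher. The lysosome digests proteins, lipids and sugars at low pH, and the proton pump that acidifies it (V-ATPase) and the RAG GTPases on its surface link it to nutrient signalling through mTORC1. TFEB, TFE3 and MITF are the factors known to drive its genes, through an extended E-box. Of 47 lysosomal enzymes and membrane proteins 18 rose (38.3%, against the background of 6.93%) and 3 fell, and the list median was 0.74. Their summed FPKM went from 1054 in DMSO to 2233 in OICR-9429. NEU1, a sialidase, went from 9.88 to 73.7 (log2 difference 2.84), and TPP1, a tripeptidyl peptidase, from 29.7 to 157 (2.38). CTSD, the aspartic protease cathepsin D, went from 11.9 to 78.4 (2.67), with 52.7% of its exon bases inside other genes. The abundant saposin precursor PSAP went from 243 to 536 (1.14), and progranulin GRN from 79.1 to 244 (1.62). Among those that fell were ACP2, an acid phosphatase (6.80 to 2.87), and CTSC, a dipeptidyl peptidase (8.55 to 3.89), and neither of these was called with TMM scaling, under which 1 member of the list was lower and 20 higher. Among V-ATPase subunits 5 of 16 rose and 1 fell. ATP6V0E1 went from 35.2 to 110 (1.64) while its paralog ATP6V0E2 went from 27.4 to 6.96 (-1.90).

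Of the 12 RAG, Ragulator and FLCN-FNIP genes of the nutrient-sensing switch on the lysosome, 4 rose and 8 were not called. This group was written after values of some members were seen. RRAGD, a RAG GTPase, was among the 20 largest rises at an FPKM of 5 or more, from 0.389 FPKM (57 reads, 95% interval 0.295 to 0.504) in DMSO to 11.1 (1646 reads, 10.5 to 11.6) in OICR-9429, a log2 difference of 3.70. RRAGC, its close relative, went from 2.57 to 16.9 (2.50), with 22.9% of its exon bases inside another gene. FLCN and FNIP1 form the complex that stimulates GTP hydrolysis by RRAGC and RRAGD. FLCN went from 1.83 to 9.57 (2.11), and FNIP1 from 4.05 to 21.8 (2.29). The 5 Ragulator genes LAMTOR1 to LAMTOR5, which anchor the RAGs, were not called, nor was RRAGA, the most abundant RAG (30.8 and 22.1, -0.47). The chloride-proton exchanger CLCN7 went from 5.91 to 37.7 (2.58), and the calcium channel MCOLN1 from 5.97 to 15.4 (1.30). The intervals of the 2 conditions do not overlap for RRAGD, RRAGC, FLCN, FNIP1, CLCN7 or MCOLN1. Nor do they for ITGA3 (log2 difference -0.29) or PSMA7 (-0.37), which were not called. At this depth a lack of overlap therefore does not set a called gene apart. The RNA of the factors TFE3 (30.4 and 51.5) and MITF (4.40 and 2.25) moved less, and neither was called. TFEB, at 0.331 and 0.0905, was below the minimum and was not assessed.

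The extended E-box was searched as GTCACGTG on both strands, and it includes the plain E-box CACGTG. It is printed for members of this group whose windows hold it, with CREBRF, a regulator of the CREB3 factors that rose from 1.01 to 11.7 (3.01), as a gene outside the lysosome lists.
CTSD (chr11:1763941-1764000, minus strand): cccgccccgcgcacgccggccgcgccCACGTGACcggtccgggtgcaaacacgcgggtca
CTSA (chr20:45891275-45891334, plus strand): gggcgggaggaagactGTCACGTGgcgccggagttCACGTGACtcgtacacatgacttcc
CLCN7 (chr16:1475029-1475088, minus strand): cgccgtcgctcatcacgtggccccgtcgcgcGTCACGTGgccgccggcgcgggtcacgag
RRAGC (chr1:38859851-38859910, minus strand): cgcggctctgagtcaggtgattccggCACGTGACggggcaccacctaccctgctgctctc
FNIP1 (chr5:131797159-131797218, minus strand): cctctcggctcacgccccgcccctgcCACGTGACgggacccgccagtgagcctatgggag
MCOLN1 (chr19:7522564-7522623, plus strand): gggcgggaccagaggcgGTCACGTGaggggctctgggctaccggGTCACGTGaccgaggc
CREBRF (chr5:173056197-173056256, plus strand): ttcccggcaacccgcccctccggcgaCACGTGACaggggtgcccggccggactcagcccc

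CTSA (17.2 to 72.6, log2 difference 2.05), which encodes the protective protein of NEU1, and MCOLN1 carry the letters at both of the places in capitals. The extended E-box was in 13.4% of windows of genes higher at least 4-fold and in 7.54% of all windows called higher, against 1.89% of those called lower, 4.14% of those assessed and not called and 2.40% of all windows. In the lysosome list it was in 12.8% of 47 windows, in the V-ATPase list in 21.4% of 14 windows, and in the DNA replication list, whose genes fell, in 11.7% of 60 windows. A match says only that the letters are there.

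A minority of autophagy genes rose, and none fell. OPTN, a receptor for damaged mitochondria, went from 14.9 to 39.7 (log2 difference 1.39), and UVRAG, a regulator of vesicle maturation, from 4.48 to 10.3 (1.12). ATG14, which starts the autophagosome membrane, and SQSTM1, another receptor, were the other members called. Thus 4 of 38 rose (10.5%, against 6.93% of all assessed genes) and none fell (against 13.5%). The list median was 0.33, which is 0.48 above that of all genes. MAP1LC3B, which coats autophagosomes, was at 30.6 and 48.7 (0.66), and was not called.

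Antioxidant genes under NRF2 rose together with iron storage. NRF2 is the factor that turns on detoxifying and iron-handling enzymes under oxidative stress. Of 31 assessed genes 13 rose (41.9%) and none fell (median 0.71), and their summed FPKM went from 2638 to 8577. FTL, the ferritin light chain, which has many near-identical pseudogene copies, was 928 of this sum in DMSO and 5781 in OICR-9429, and without it the sum went from 1710 to 2796. OSGIN1, an oxidative stress response gene, went from 2.86 to 43.9 (3.72). HMOX1, which breaks down haem, went from 44.9 to 158 (1.80), and NQO1, a quinone reductase, from 127 to 353 (1.47). MAFG, the small MAF partner of NRF2, went from 15.6 to 65.2 (2.03). Glutathione synthesis was split. GCLC, the catalytic subunit of its first enzyme, rose from 4.06 to 11.5 (1.40), but the cystine importer SLC7A11 stayed at 17.4 and 18.9 (0.11), against 3.44 and 19.5 in UM-UC-3 (2.34). The transferrin receptor TFRC rose from 19.4 to 50.2 (1.35), the ferrireductase STEAP1 fell from 4.52 to 0.818 (-1.93), and the iron exporter SLC40A1 was at 0.800 and 0.157, below the minimum. The antioxidant response element core (TGACNNNGC, both strands) was in 34.5% of the 29 windows of these genes and in 13.3% of all windows. It was as frequent in the V-ATPase (35.7%), lysosomal (31.9%) and integrated stress response (30.4%) windows.

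Osmolyte and amino acid transport rose in part. SLC5A3, the myo-inositol transporter, went from 9.67 to 106 (log2 difference 3.38), and it lies within the locus of MRPS6, a mitochondrial ribosomal protein gene that went from 5.00 to 17.1 (1.67), and the 2 share some exon bases. NFAT5, the factor of the hypertonic response, went from 17.8 to 44.4 (1.29). In all, 6 of 14 osmotic stress genes rose and none fell, with AKR1B1, the sorbitol-forming reductase of that response, at 23.8 and 21.3 (-0.15). The neutral amino acid carriers SLC38A1 (48.4 to 125), SLC38A2 (220 to 521) and SLC38A7 (6.54 to 19.3) rose, as did the glycine carrier SLC6A9 (1.38 to 4.98).

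Integrated stress response targets rose in part. Its factor ATF4 is translated when eIF2 is phosphorylated and then switches on amino acid supply and, later, death genes. Of 32 assessed targets 11 rose and none fell (median 0.57), while in UM-UC-3 28 of 35 rose (median 1.66), and the difference between the lines was not tested. GDF15, a secreted stress cytokine, went from 109 to 398 (1.87), TRIB3, a pseudokinase, from 43.0 to 124 (1.52), and ATF5 from 5.96 to 19.6 (1.64). Other targets, picked for their contrast between the lines, were not called in T24. CHAC1, which degrades glutathione, was at 51.5 and 31.3 (-0.71) in T24 and at 1.84 and 43.1 in UM-UC-3. ASNS, the asparagine synthetase, was at 72.1 and 65.7 (-0.13) in T24 and at 32.8 and 123 in UM-UC-3, with 44.6% of its exon bases inside another gene. SESN2, an mTORC1 inhibitor, was at 32.2 and 41.1 (0.35) in T24 and at 9.33 and 88.5 in UM-UC-3. In each of these the T24 DMSO level already stood above that of UM-UC-3 DMSO.

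The site that ATF4 shares with its C/EBP partners (CARE, TGATGNAA, both strands) is printed for the pair of uncalled targets named above, to show that a match and a call need not go together.
ASNS (chr7:97872443-97872502, minus strand): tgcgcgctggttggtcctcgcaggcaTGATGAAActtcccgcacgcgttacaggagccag
CHAC1 (chr15:40953236-40953295, plus strand): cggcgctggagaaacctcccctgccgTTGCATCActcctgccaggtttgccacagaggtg
CARE letters were in 19.6% of the 46 windows of this list and in 3.62% of all windows. They were in 2.33% of windows of genes called higher in T24 and in 1.82% of those assessed and not called.

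Most chaperone genes and most glycolytic enzymes were not called. Of 32 cytosolic heat shock genes 3 fell (9.4%) and 4 rose (12.5%). Among 32 chaperone and degradation genes of the endoplasmic reticulum 5 fell (15.6%) and 3 rose (9.4%). The background was 13.5% lower and 6.93% higher, and the chaperones named here are picked from these lists. HSPA8, the constitutive HSP70, rose from 210 to 620 (log2 difference 1.56) and was at 523 and 280 in UM-UC-3 (-0.90). HSPA5, the main chaperone of the endoplasmic reticulum, was at 264 and 267 (0.02) in T24 and at 237 and 925 in UM-UC-3 (1.97). HERPUD1, a degradation factor of that compartment, rose in T24 from 21.1 to 55.4 (1.37), whereas PDIA4 fell from 175 to 56.5 (-1.62). CCT7, a subunit of the chaperonin that folds actin and tubulin, fell from 147 to 32.3 (-2.16). Glycolytic enzymes were mostly level in T24, with 1 of 19 lower, 1 higher and a median of -0.22, against 9 of 21 lower and a median of -0.72 in UM-UC-3. LDHA, the lactate dehydrogenase, was at 277 and 315 in T24 (0.18) and at 204 and 33.1 in UM-UC-3 (-2.61). PKM, the pyruvate kinase, was at 255 and 259 (0.03) and at 221 and 75.9 (-1.54). PGAM1 fell in T24 from 184 to 74.8 (-1.29) and the neuronal enolase ENO2 rose to 46.0 (1.18). The differences between the lines were not tested, and HSPA8 and LDHA have pseudogene copies that the counting could split.

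Histone genes rose while replication fell. Of 62 replication-dependent histone genes only 19 reached the minimum, and 12 of these rose and 2 fell, with a median 1.25 above that of all genes. HIST1H2BK, an H2B gene, went from 14.3 to 108 (log2 difference 2.88), HIST1H2AC, an H2A gene, from 2.87 to 33.1 (3.32), and HIST1H2BD from 1.23 to 15.1 (3.17). HIST1H1C, a linker histone, went from 7.02 to 32.0 (2.11). In UM-UC-3 11 of 28 rose and 4 fell. These genes are near-identical to each other and normally lack poly(A) tails, so the share of them that a library captures and where their reads are placed are both uncertain.

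Most ribosome genes were not called, and 2 elongation factor genes rose. Of 84 cytoplasmic ribosomal protein genes 6 fell and 3 rose (median -0.10), and the sign of that median changed with scaling. None of 68 ribosome biogenesis genes was called (median -0.22). The elongation factors that rose were 2 of 7 assessed, with none lower and a list median of 0.74. EEF1A1, among the most abundant RNAs in both libraries, went from 2068 to 5172 (log2 difference 1.32), and it has many pseudogene copies. EIF4B went from 69.4 to 184 (1.40), EIF3A from 62.9 to 159 (1.33) and EIF1 from 124 to 300 (1.27), the 3 initiation factors of 35 that rose. Mitochondrial ribosomal proteins (median -0.46, 8 of 73 lower), proteasome subunits (-0.46, 2 of 38 lower) and spliceosome genes (-0.43, 12 of 61 lower) lay below the median of all genes. SNRPB, a core protein of the small nuclear ribonucleoproteins, fell from 141 to 33.2 (-2.07). Nuclear genes of the respiratory chain had a median of -0.41 with 1 of 67 lower, while the 13 mitochondrially encoded genes had one of 0.10 with none called.

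All 4 ID genes and some Notch effectors rose. ID proteins are helix-loop-helix inhibitors and the classical BMP targets. ID4 went from 0.724 to 9.22 FPKM (log2 difference 2.99), ID2 from 2.26 to 15.3 (2.51), ID1 from 43.0 to 130 (1.59) and ID3 from 11.5 to 26.8 (1.19). In UM-UC-3 the 4 were at -0.33, 0.16, -0.12 and -0.77, and the difference between the lines was not tested. The inhibitory SMADs moved too, SMAD6 from 0.235 to 1.43 and SMAD7 from 3.71 to 9.81, and so did the receptor BMPR2, from 6.59 to 16.4. In all, 8 of 24 TGF-beta and BMP genes rose and 2 fell (median 0.43). TGFB2, a ligand, fell from 4.39 to 1.89 (-1.03), a call that was lost with TMM scaling. The Notch effectors HEY1 (0.0536 to 2.89, 5 and 274 reads) and HES1 (9.38 to 21.2) rose, and DKK1, a secreted WNT antagonist, fell from 6.53 to 1.56 (-1.77).

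YAP and its TEAD partners switch on adhesion and matrix genes in spread cells. Of 25 assessed targets 6 fell and none rose (median -0.46). CYR61, a matricellular protein, went from 917 to 73.1 (log2 difference -3.64). CTGF, its relative, went from 265 to 52.8 (-2.32), and AXL, a receptor tyrosine kinase, from 80.9 to 35.1 (-1.19). YAP1 itself was at 24.2 and 37.9 (0.64), not called. The TEAD letters (GGAATG, both strands) are printed for CTGF, which holds them at 2 places, and for EDN1, the endothelin gene on the same list, whose level fell to near 0 in T24.
CTGF (chr6:131951435-131951494, minus strand): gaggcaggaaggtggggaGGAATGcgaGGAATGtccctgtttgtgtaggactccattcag
EDN1 (chr6:12289858-12289917, plus strand): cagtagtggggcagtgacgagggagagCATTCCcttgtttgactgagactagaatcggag
They were in 36.0% of the 25 windows of the list and in 14% of all windows, and in 13.4% of windows called lower and 13.2% of those called higher.

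Genes of RAS-MAPK output were called at shares near those of all assessed genes. Of 24 MAPK output and feedback genes 4 fell (16.7%, against 13.5%) and 1 rose (4.17%, against 6.93%), with a median of -0.10. ETV4, an ETS factor downstream of ERK, fell from 23.9 to 8.35 (log2 difference -1.46), while DUSP6, the ERK phosphatase, was at 8.84 and 6.85 (-0.35) and the feedback inhibitor SPRY4 at 48.5 and 79.4 (0.71). Of 22 ERBB and FGF ligands and receptors 8 fell and 1 rose, with AREG at 10.1 and 2.65 (-1.75) and HBEGF at 29.7 and 8.81 (-1.70). AREG and HBEGF are on the MAPK list as well. EGFR was at 49.0 and 55.2 (0.17). Immediate-early genes were mixed, with 7 of 26 higher and 3 lower. CYR61 and CTGF, given above as YAP targets that fell, are on this list too. FOS (1.97 to 6.47), FOSB (0.518 to 2.66), KLF4 (3.65 to 14.4), NR4A2 (2.44 to 10.7) and NR4A3 (0.214 to 2.72) rose, but EGR1, the growth factor response gene, fell from 71.3 to 30.3 (-1.22), whereas in UM-UC-3 it was at 2.85 and 20.4 (2.64). IER3, an early gene with a role in survival, rose from 46.1 to 235 (2.34), and it is the gene of the MAPK list that rose.

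Tubulin genes fell in most cases, and actin and matrix genes in a minority. Of 15 tubulins and tubulin regulators 9 fell and none rose (median -1.95), with TUBB4B at 409 and 72.9 (log2 difference -2.48), and TUBB at 499 and 129 (-1.95). STMN1, which frees tubulin dimers, went from 97.3 to 19.6 (-2.28). Of 43 actin and SRF genes 13 fell and 1 rose (median -0.69). ACTB, the main cytoplasmic actin, went from 2168 to 566 (-1.94) while the near-identical ACTG1 was at 2034 and 1416 (-0.52). TAGLN2, an actin-binding protein, went from 105 to 23.7 (-2.13), and TPM1, a tropomyosin, from 65.4 to 16.2 (-1.98). Matrix genes followed, with 9 of 34 lower and 2 higher. LAMB3, the beta chain of laminin-332, went from 121 to 30.8 (-1.95), COL4A1 from 41.4 to 14.2 (-1.52), COL12A1 from 23.5 to 6.85 (-1.71) and THBS1, thrombospondin, from 12.2 to 3.61 (-1.63). The 2 that rose were FN1, fibronectin (2.37 to 6.07), and LOX, which cross-links collagen (1.26 to 4.11). Of the keratins 4 of 7 fell, with KRT80 at 87.4 and 19.1 (-2.17) and KRT8 at 71.5 and 28.9 (-1.29). CD44, a basal marker and hyaluronan receptor, and VIM, the mesenchymal intermediate filament, were at 77.7 and 143 (0.88) and at 40.4 and 81.1 (0.99), just under the threshold on FPKM + 0.5, and both were called higher with TMM scaling. In UM-UC-3 they went the other way (-1.57 and -1.20), and the difference between the lines was not tested.

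**Figure D3:**
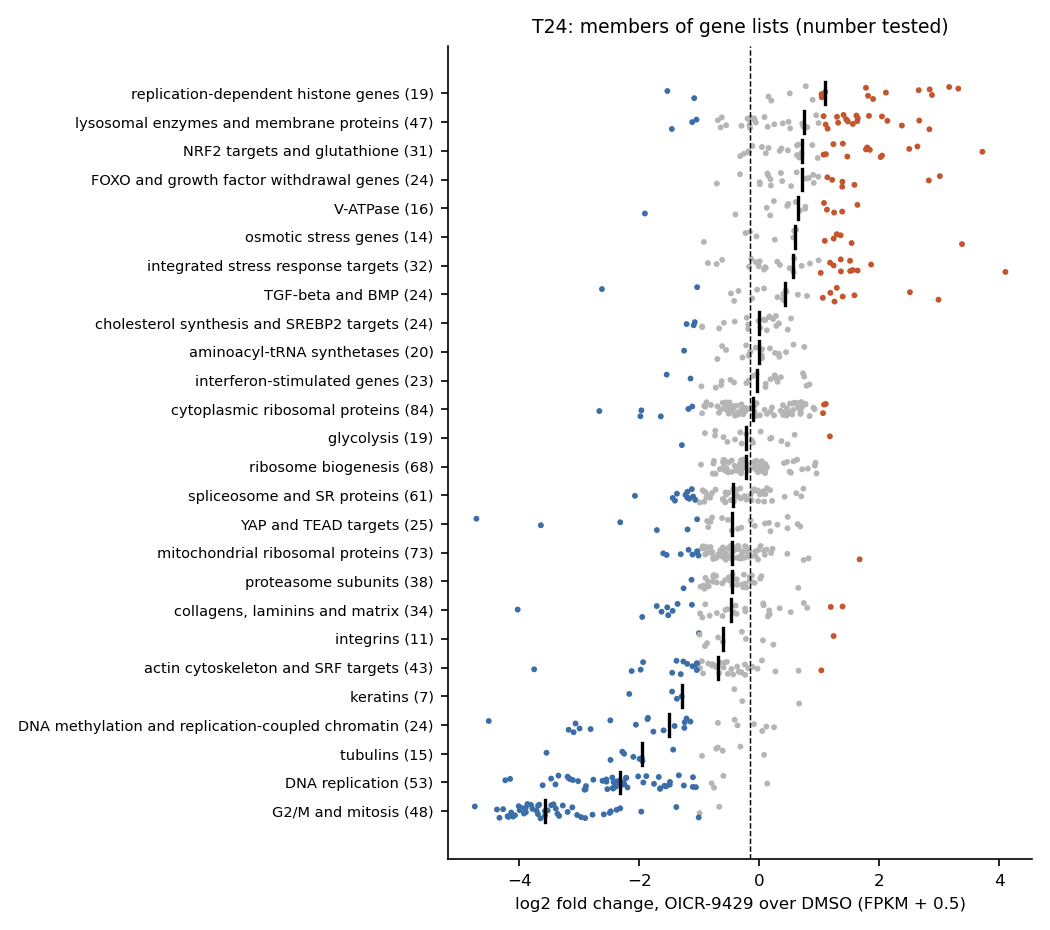
Log2 difference in FPKM + 0.5, OICR-9429 over DMSO, of the assessed members of 26 gene lists in T24 (1 point per gene), with the list median as a bar and the median of all genes as a dashed line. The G2/M and DNA replication lists sit far to the left, tubulins and actin genes less so, and the lysosome, NRF2 and histone lists sit to the right.

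A few ligands for immune cells fell, and few interferon or inflammatory genes were called. Of 22 antigen presentation and checkpoint genes 4 fell (18.2%, near the background of 13.5%) and none rose, with a median of -0.24. CD274, the ligand of PD-1, went from 1.38 FPKM (164 reads, 95% interval 1.18 to 1.61) to 0.0664 (8 reads, 0.0287 to 0.131), a log2 difference of -1.73, and it was at 1.34 and 0.792 in UM-UC-3 (-0.51, not called). MICB, a stress ligand for NKG2D, went from 62.5 to 20.2 (-1.61), and ULBP2, another, down to 0.430 (-1.43). B2M, the light chain of MHC class I, stayed at 69.9 and 65.4 (-0.09). Of 23 interferon-stimulated genes 2 fell and none rose (median -0.04), against 19 of 39 lower in UM-UC-3, where the median was -1.09 relative to all genes. TNF rose from 8.56 to 20.9 (1.24), CXCL2 from 3.74 to 12.2 (1.59) and the NF-kappa-B inhibitor NFKBIA from 32.1 to 73.6 (1.18), while BIRC3, a target of the same pathway, fell from 32.7 to 12.2 (-1.39).

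**Figure D4:**
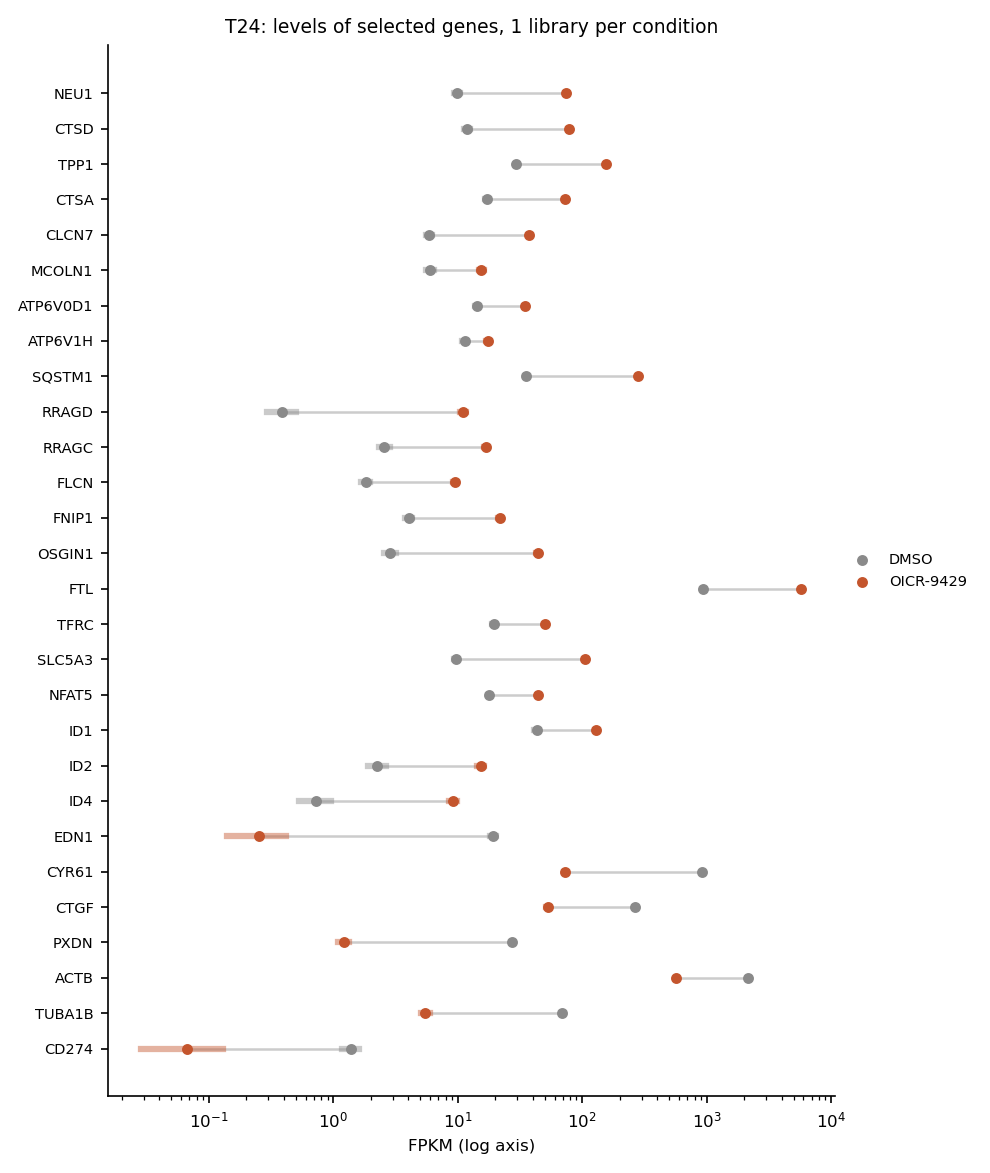
FPKM (log axis) of 28 selected genes in the T24 DMSO (grey) and OICR-9429 (orange) libraries, with 95% exact Poisson intervals where reads could be worked back. RRAGD goes from 0.389 to 11.1 and CD274 from 1.38 to 0.0664, with intervals far narrower than the gap between the libraries.

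Some genes known from growth factor withdrawal and the clock rose, and zinc genes moved both ways. Of 24 FOXO-type genes 7 rose and none fell (median 0.71). KLHL24, an adaptor for a ubiquitin ligase, rose to 16.5 (log2 difference 3.01), and IRS2, the insulin receptor substrate, from 21.9 to 57.9 (1.38). The clock repressors NR1D1 (4.35 to 14.7) and NR1D2 (7.80 to 24.3) rose among 5 of 14 clock genes. PPARA (1.78 to 7.44) and PPARG (3.12 to 6.93), nuclear receptors of lipid metabolism, rose as well. They were the 2 called higher of 12 assessed genes of lipid droplets and of LXR and PPAR targets. In that list 3 fell, among them FABP5 (-1.73) and ACADVL (-1.44), and the median was -0.41. Among 5 assessed metallothionein and zinc genes 2 fell and 1 rose. SLC30A1, the zinc exporter, rose from 5.10 to 15.6 (1.52) and the importer SLC39A10 fell from 18.2 to 5.63 (-1.61). The metallothionein MT2A fell from 1861 to 908 (-1.04), a call that was lost with TMM scaling. p53 targets had no common direction, with 4 of 27 lower and 1 higher. CDKN1A was at 74.3 and 70.4 (-0.08), GADD45A fell from 78.1 to 14.8 (-2.36) and PLK2 from 74.0 to 11.5 (-2.63). In the BCL2 family 1 of 17 rose (5.88%, against 6.93% of all assessed genes) and 1 fell, with a median of -0.32. BMF, a BH3-only death protein, rose from 0.407 to 2.94 (1.92). BCL2L12 fell from 31.3 to 9.12 (-1.72), with 33.1% of its exon bases inside another gene.

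Several of the largest rises were in genes outside any list. UAP1L1, a paralog of the enzyme that makes UDP-GlcNAc, went from 1.47 to 21.2 FPKM (log2 difference 3.46), LURAP1L from 0.683 to 11.2 (3.31), and TM4SF19, a transmembrane protein, from 1.09 to 17.8 (3.52), with 49.6% of its exon bases inside other genes. FIBCD1, an acetyl-group receptor of the cell surface, went from 0.289 to 8.32 (3.48), and was at 22.4 and 14.2 in UM-UC-3 (-0.63). Non-coding RNAs moved too. The intergenic RNA AC099552.4 went from 1 to 168 reads (3.91), and its neighbours INSIG1 (0.48) and PAXIP1 (-0.47) were not called. It stayed near 0 in UM-UC-3, at 0.0476 and 0.0461 FPKM. AC068580.5, a sense intronic transcript, lies within CTSD and went from 3 to 82 reads (3.67) as that gene rose. RP11-301G19.1 went from 65 to 787 reads (3.18). Of 29 assessed abundant non-coding RNAs and host genes of small nucleolar RNAs, 9 rose and 6 fell. Among the host genes, SNHG7 went from 8.64 to 46.6 (2.37) and GAS5 from 57.2 to 141 (1.29), while SNHG15 fell (-1.86). CCAT1, an RNA from the MYC region, fell from 8.60 to 1.47 (-2.21).

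UM-UC-3 had its own DMSO library, so the 2 lines share no control. There 12.1% of 13086 assessed genes were lower and 14% higher. Of the genes that fell in T24, 707 also fell in UM-UC-3, which is 41.4% of the T24 falls and 44.7% of those in UM-UC-3. Of those that rose, 299 did so in both, 34.1% of the T24 rises and 16.4% of those in UM-UC-3. The shares of T24 calls include 361 falls and 216 rises that were under the minimum in UM-UC-3 and could not be called there. Calls in opposite directions numbered 49. STC1, the secreted stanniocalcin, rose in T24 from 10.8 to 25.1 (log2 difference 1.18) and fell in UM-UC-3 from 2.76 to 0.322 (-1.99), and GFPT2, the second hexosamine pathway amidotransferase, rose from 7.94 to 19.7 (1.26) and fell from 22.6 to 8.34 (-1.39). The differences between the lines were not tested.

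**Figure D5:**
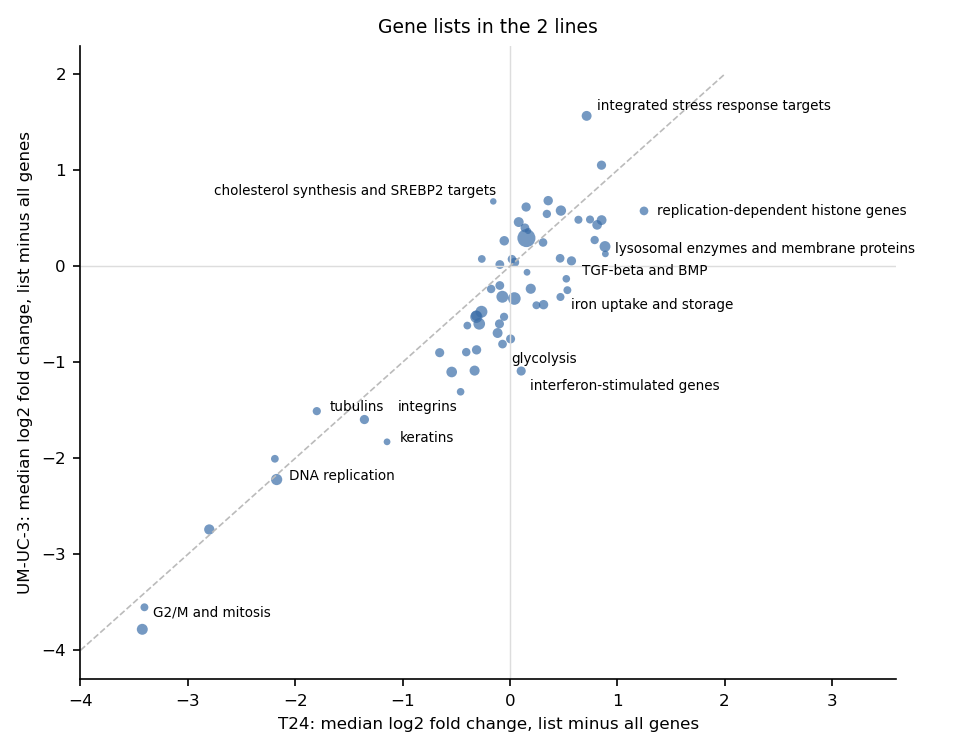
Median log2 difference of each gene list minus the median of all genes, in T24 (x axis) and UM-UC-3 (y axis), with larger points for lists with more assessed members and a dashed line where the 2 are equal. The G2/M list lies at the lower left (T24 -3.42, UM-UC-3 -3.78), and integrated stress response targets lie above the line, at 0.72 in T24 and 1.57 in UM-UC-3.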

How the data were processed

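RNA of 4 libraries was measured by RNA-seq, and the 2 T24 libraries carry the report. The authors sequenced paired ends, and the submitters' processing notes list HTSeq 0.6.1, HISAT2 2.1.0, build hg19 and bcl2fastq 2.19.1, with no roles given. The deposited values are FPKM per gene, 1 table per library, and the strand setting and filters are not given in the sources used here. Because FPKM are whole multiples of what 1 read is worth, reads and library totals were worked back (93.6% of genes gave whole reads in both T24 libraries, within 1e-06). No count test was run on these reads, since with 1 library per condition it would compare libraries and not conditions.

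Genes were assessed from FPKM 1, and called at 2-fold in FPKM + 0.5. Poisson intervals cover counting error only. Gene lists (67 lists, 2504 of 2550 entries matched) were described by counts and medians. Exon overlap came from GENCODE release 29, and promoter windows from RefSeq (GRCh38.p14), by gene identifier, for 8855 of the 12638 assessed genes. Both are on GRCh38, so overlaps may differ from those of the hg19 annotation used for counting, and no coordinates were converted. A motif match was a string match. Other scalings (TMM, median ratio, TPM, without the 100 most abundant genes), pseudocounts, level minimums and fold thresholds were tried. Python 3.11.15, numpy 2.4.6, pandas 2.3.3, scipy 1.17.1 and matplotlib 3.10.9 were used, and the calling step was tested on simulated data.

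The members, lists and motifs were chosen with earlier results of these data known. Genes named were drawn, not exhaustively, from the 20 largest falls and 20 largest rises at FPKM 5 or more, for each list the 2 most abundant members in DMSO and the 3 largest changes at FPKM 1 or more, the 10 most abundant genes of each library, the 5 largest changes in each direction called the opposite way in UM-UC-3, and genes the paper names. Some that the rule allows are not reported here. Other genes named, all of the printed promoters and the motifs were chosen after values were seen.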

Additional observations from a re-analysis of the deposited data

Results flagged for a closer look

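Of the 49 genes called in opposite directions in the 2 lines, the 5 with the largest T24 change in each direction are given here, and the difference between the lines was not tested for any of them. ADGRG1, an adhesion receptor coupled to G proteins, went from 0.388 to 5.92 FPKM in T24 (log2 difference 2.85) and from 9.65 to 3.64 in UM-UC-3 (-1.29). PCDHGC3, a protocadherin of the gamma cluster, was at 3.83 and 18.1 in T24 (2.11) and at 8.58 and 3.66 in UM-UC-3 (-1.12), and 40.2% of its exon bases lie in other genes of that cluster. RP1-68D18.4 shares 14.3% of its exon bases with CD44, and was at 1.77 and 7.38 in T24 (1.79) and at 4.47 and 1.17 in UM-UC-3 (-1.58). AC008746.5 was at 4.61 and 0.625 in T24 (-2.18) and at 1.30 and 4.56 in UM-UC-3 (1.49).

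The others are short RNAs or little-known loci. In T24 the log2 difference was 1.91 and -3.12 at 2 Y_RNA loci, -2.70 for RNU7-48P, 1.83 for MIR2116, -2.51 for MIR4326 and -2.76 for AC073130.2. Each had the opposite sign in UM-UC-3. At most 20 reads stood behind either T24 value, except for AC073130.2, whose reads were not worked back.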

How the results depend on the processing

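The counts of genes called depended on the rules. With TPM in place of FPKM 3413 genes were lower and 2116 higher. TPM values are larger than FPKM here, so both the minimum and the pseudocount weigh less on that scale. With no minimum on FPKM there were 2028 and 1092. At an FPKM of at least 5 there were 990 and 486, at 4-fold 415 and 131, and at 1.5-fold 3432 and 1953. The share of CHR letters among promoters of genes called lower went from 15.7% to 17.9% with TMM factors from FPKM and to 17.7% with TMM factors from worked-back reads. The median of the protease list turned from -0.55 to 0.0082 under TPM. Of 63 lists, 8 had a median whose sign changed with scaling, namely the protease list and those of cytoplasmic ribosomal proteins, aminoacyl-tRNA synthetases, endoplasmic reticulum chaperones, fatty acid synthesis, MAPK output, ERBB and FGF ligands and receptors, and interferon-stimulated genes. The naming rule given with the methods drew 323 genes, of which 216 were called. Of these 216, 202 kept their call under every rescaling and pseudocount, 14 lost it and 0 changed direction. Of the uncalled genes drawn, 14 gained a call. Genes named outside that rule, such as ACP2 and CTSC, are not in these counts. Leaving out a replicate was not possible. No paired analysis was possible because each condition has 1 library per line.

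Of the calls, 199 falls and 121 rises had under 20 worked-back reads in the higher library. Short RNAs and genes near the minimum are the least certain. Treatment and library cannot be told apart, and near-identical gene copies were counted as the authors' pipeline placed them.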

Other observations

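Shorter RNAs were called lower more often than longer ones. Among protein-coding genes split into 5 equal groups by exon length, the share called lower went from 16.3% in the shortest group (median length 2226 bases) to 6.84% in the longest (median 10655.5), and the median log2 difference from -0.32 to 0.06. In UM-UC-3 the medians went from -0.09 to 0.19 over the same groups. Zinc finger genes named ZNF, had a median of 0.01 over 353 genes, with 25 lower and 7 higher. Short RNA classes were called often in both directions. Of 85 snoRNA genes 37.6% were lower and 15.3% higher, of 100 snRNA genes 41% and 20%, and of 116 miRNA genes 29.3% and 25.9%.

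Some genes that most cells use are listed near 0 in T24, so a level near 0 in these tables was not read as absence. HEXA, a lysosomal hexosaminidase subunit, is at 0.00275 FPKM in DMSO and 0.00811 in OICR-9429. TXNIP and PLIN2 are also listed at or near 0 in T24. These 3 genes were chosen after their values were seen.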
